A study of Mus musculus with 6 samples.

Results

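Heat shock proteins and their cochaperones, the proteins that fold other proteins and hold unfolded ones in solution, were followed in osteal macrophages (Omacs) of ovariectomized (OVX) and sham-operated mice. Members were chosen by gene symbol alone: the numbered Hspa, Hspb, Hspd, Hspe and Hsph genes with Hspbp1, the Hsp90 genes, the numbered Dnaja, Dnajb and Dnajc genes, the Bag genes, the Cct genes and the heat shock factors (Hsf). The rule found 76 of 11815 genes in the table. Both groups were female BALB/c mice, operated on at 10 weeks of age and harvested 4 weeks later, with 20 mice for each condition. OVX mice had lost their ovaries and with them the ovarian source of estrogen, and sham mice had the operation without that loss. Cells were released from femurs and vertebrae by trypsin and then by collagenase overnight at body temperature, a step shared by both groups, and sorted for CD11b with F4/80 or CD68. Bulk RNA sequencing gave 3 OVX and 3 sham libraries, and nothing in the sources says how the mice were divided among them. The values are TPM, in which a transcript counts by its length-corrected part of the RNA sequenced and every library has the same full total. They were summed per gene and scaled so that most genes match between libraries ("scaled TPM").

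As background, chaperones work in relays. HSP70 proteins bind unfolded stretches, DNAJ proteins bring them their clients and start ATP hydrolysis, and the nucleotide exchange factors of the BAG, HSPBP1 and HSP110 groups release the client again. HSP90 finishes the folding of kinases and steroid receptors, the ring-shaped TRiC complex (Cct genes) folds actin and tubulin, and HSP60 with its lid HSP10 does the same work inside mitochondria. Small HSPs hold unfolded proteins without using ATP. Heat, oxidants and proteasome block switch on the cytosolic genes through the factor HSF1, which binds repeated GAA units, while unfolded proteins in the endoplasmic reticulum (ER) switch on ER chaperones through ATF6, XBP1 and the factor NF-Y, which bind the ER stress element. In macrophages, chaperones of the cytosol and the ER carry the load of secretion and of oxidants made by the cells themselves.

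Both elements can be read in the promoters of members. Shown here are the 3 that hold the ER stress element, all of ER chaperones, and the one that Hspd1 and Hspe1 share, for its heat shock elements. In RefSeq promoters of build GRCm38.p6, 61 of the 76 members matched by symbol. The 250 bases before each start were searched on both strands. The ER stress element, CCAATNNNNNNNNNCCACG, was found in 3 members, Hsp90b1, Hspa5 and Dnajc3, and in 0.13% of 27025 genes. A heat shock element of 3 alternating units, GAANNTTCNNGAA, was found in Hspd1, Hspe1 and Dnajb6, and in 0.514% of the same genes. The ER stress element contains the CCAAT box, so each match overlaps one. A match describes the letters and is no measured binding site. Only these exact letters were searched, so a member without a match may still hold a variant of the element. The first 3 stretches run 5′ to 3′ on the gene's strand with the ER stress element in capitals. They are Hsp90b1 (chr10:86705445-86705694, minus strand, 2 matches), Hspa5 (chr2:34771840-34772089, plus strand, 1 match) and Dnajc3 (chr14:118937682-118937931, plus strand, 1 match). The fourth is the stretch between the start sites of Hspd1 and Hspe1 (chr1:55087933-55088147, plus strand), with 2 overlapping heat shock elements in capitals. These sites lie 216 bases apart and point away from each other. The promoters give 2 start sites for Hspd1, and the one with the lower coordinate was used.
Hsp90b1: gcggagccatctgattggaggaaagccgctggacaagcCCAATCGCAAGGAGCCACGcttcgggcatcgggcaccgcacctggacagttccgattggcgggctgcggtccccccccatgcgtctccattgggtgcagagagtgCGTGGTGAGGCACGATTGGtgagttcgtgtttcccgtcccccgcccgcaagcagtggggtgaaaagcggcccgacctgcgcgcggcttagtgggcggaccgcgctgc
Hspa5: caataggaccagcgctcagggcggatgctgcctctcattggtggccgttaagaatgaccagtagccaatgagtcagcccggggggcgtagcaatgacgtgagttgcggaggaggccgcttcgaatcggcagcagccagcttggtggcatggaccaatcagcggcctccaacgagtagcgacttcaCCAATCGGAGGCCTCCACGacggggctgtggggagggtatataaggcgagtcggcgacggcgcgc
Dnajc3: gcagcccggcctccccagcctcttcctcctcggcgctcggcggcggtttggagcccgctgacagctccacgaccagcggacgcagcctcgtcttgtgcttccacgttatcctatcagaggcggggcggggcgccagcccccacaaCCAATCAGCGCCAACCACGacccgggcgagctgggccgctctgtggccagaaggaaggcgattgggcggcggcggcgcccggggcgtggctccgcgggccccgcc
Hspd1 and Hspe1: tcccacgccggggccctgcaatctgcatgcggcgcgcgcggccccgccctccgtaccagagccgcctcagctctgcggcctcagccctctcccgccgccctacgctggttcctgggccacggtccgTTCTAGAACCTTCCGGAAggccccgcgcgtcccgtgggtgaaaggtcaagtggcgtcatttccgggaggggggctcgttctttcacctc

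The libraries were not alike. OVX replicate 3 stood apart: listed transcripts held 66.3% of its TPM scale, against 80.5% to 83.0% in the other 5 libraries. It lay outside the range of the other 5 in 51 of the 66 members tested (77.3%) and in 65.5% of all genes tested, so results are given with and without it. The macrophage label is only partly borne out. Itgam (CD11b) was at 18.8, 18.5 and 28.2 scaled TPM in OVX libraries and 11.3, 13.6 and 10.8 in sham libraries, Cd68 was at 36.4 to 43.0 in OVX and 32.4 to 37.9 in sham, Adgre1 (F4/80) was near or below 1 in every library, and Csf1r was listed at 0 in all 6. Other macrophage markers were abundant. Cd14 was at 583 to 917 in OVX and 671 to 774 in sham, and Lgals3 at 581 to 649 in OVX and 471 to 530 in sham, while Mertk stayed below 1. The macrophage markers, 9 of 14 listed, summed to 2053, 1946 and 1566 in OVX and 1525, 1568 and 1600 in sham. These sums overlapped, but 6 of 6 tested were above 0 in log2 fold change, 3 of them without overlap. Neutrophil markers summed to 141693, 133426 and 132031 scaled TPM in OVX and 80473, 89156 and 69877 in sham, with 7 of 7 tested above 0 in log2 fold change and none of the 8 listed at 0. Skeletal muscle markers summed to 220.3, 189 and 211 in OVX and 287, 310 and 303 in sham, with 10 of 10 tested below 0 and none of the 13 listed at 0. Stromal markers summed to 11695 in OVX replicate 3 and 18244 to 19443 in the other 5 libraries. Chondrocyte markers summed to 972 in OVX replicate 3 and 1310 to 1516 in the other 5. Most of that sum was Comp and Chad, the 2 tested below 0 in log2 fold change, both without overlap. The remaining 11 of 13 tested were above 0, 9 of them without overlap. Col2a1, for one, was at 119, 123 and 119 in OVX and 68.3, 70.9 and 68.9 in sham. Osteoblast and osteocyte markers, 6 of 12 listed and 1 of them at 0 throughout, summed to 5356, 5012 and 4455 in OVX and 6455, 6445 and 6480 in sham, without overlap and nearly all of it Spp1, while of the 4 tested 3 were above 0 and 1 below. Osteoclast markers, 3 of 7 listed, overlapped at 119, 101 and 47.8 in OVX and 91.0, 96.5 and 108.8 in sham. In such bulk samples, fewer cells of a type and less RNA per cell cannot be told apart. The part of these cells in the results below was not tested. Erythroid, B cell and endothelial markers were not analysed here.

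A few of the chaperone genes were abundant in both groups. Members made up 0.485%, 0.475% and 0.403% of the TPM scale in OVX replicates 1, 2 and 3, against 0.517%, 0.510% and 0.571% in sham replicates 1, 2 and 3, and the 5 most abundant members of each library held 50.4% to 53.7% of that sum. After scaling, the sum over all 76 members was 4867, 4719 and 4786 scaled TPM in OVX, against 4947, 5126 and 5020 in sham, so the groups did not overlap. The level order by mean over the 6 libraries began with Hsp90ab1, Hspb1, Hspe1, Hspa8 and Hspa5. In OVX replicate 3 the order differed, with Hspe1 first at 973 and Hspb1 after Hsp90ab1, Hspa8, Hspa5 and Hsp90b1 at 273.

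The comparison asked whether loss of the ovaries moved the chaperone genes of Omacs. Of the 66 members whose mean scaled TPM reached 1, limma called 0 higher and 0 lower in OVX (threshold of 0.05 after Benjamini-Hochberg adjustment over all genes), and the lowest adjusted p was 0.692. Among all 8184 genes tested, 0.0122% were called. At an unadjusted limma p of 0.05, 1 member was higher (Hspb11) and 1 lower (Bag3), beside 3.46% of all genes higher and 3.43% lower. The log2 fold change was above 0 for 32 members and below 0 for 34, with a median of -0.03 beside -0.01 for all genes tested. The 10 members not tested were Bag4, Dnajb3, Dnajb5, Dnajc12, Dnajc16, Dnajc22, Dnajc27, Hsf1, Hspa12a and Hspa12b. Dnajc22 and Hspa12b were listed at 0 in all libraries.

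Members whose groups did not overlap were then sorted by compartment. The 3 OVX libraries lay below every sham library for 12 members, 18.2% of those tested, beside 7.76% of all genes, and above every sham library for 5, 7.58%, beside 7.36% of all genes. All 12 lower ones are proteins of the cytosol or nucleus (12 of 42 tested there), namely Bag3, Cct6a, Cct7, Cct8, Dnajb4, Hsp90ab1, Hspa14, Hspa1b, Hspa4l, Hspa8, Hspb1 and Hspb8. Of the 5 higher ones, Hsp90b1, Dnajc10 and Dnajc3 belong to the ER (3 of 12 tested there), and Hspb11 and Hsf2 to the cytosol or nucleus. No member of the mitochondrion was on either side. Without OVX replicate 3 the same 12 cytosolic members lay below all sham libraries, joined by Hspe1, and the higher ones were the same 5 with Dnajb11. With fewer libraries more genes separate, 13.0% of all genes below and 13.4% above. On the TPM as deposited 11 members lay below and only Hsp90b1 above, beside 13.0% and 3.6% of all genes.

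Summed by compartment, cytosolic and nuclear members were at 3471, 3359 and 2811 scaled TPM in OVX, against 3563, 3690 and 3674 in sham. ER members were at 609.6, 618 and 674 in OVX, against 553, 565 and 567 in sham. Thus in scaled TPM every OVX library was below every sham library for the cytosol and above every sham library for the ER. OVX replicate 3 was the most extreme in both. On the TPM as deposited the cytosolic sums still separated, but the ER sums overlapped. There Hspa5, the most abundant ER member, was at 309, 314 and 250 in OVX and 283, 291 and 359 in sham. The most abundant genes weigh most in such sums. In the cytosol Hspb1 had a mean of 517 in OVX and 733 in sham. In the ER Hsp90b1 had a mean of 228 in OVX and 178 in sham. Mitochondrial members overlapped, at 758, 716 and 1273 in OVX and 807, 842 and 752 in sham. The median log2 fold change was -0.15 for the cytosol and nucleus (15 above 0, 27 below), 0.10 for the ER (9 above, 3 below) and 0.03 for the mitochondrion (5 above, 3 below), and without OVX replicate 3 it was -0.05, 0.07 and 0.07. On the TPM as deposited, where the median of all genes moves to -0.15, these medians were -0.31, -0.03 and -0.11, so the ER value changes sign but keeps its place above all genes and above the cytosol.

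**Figure D1:**
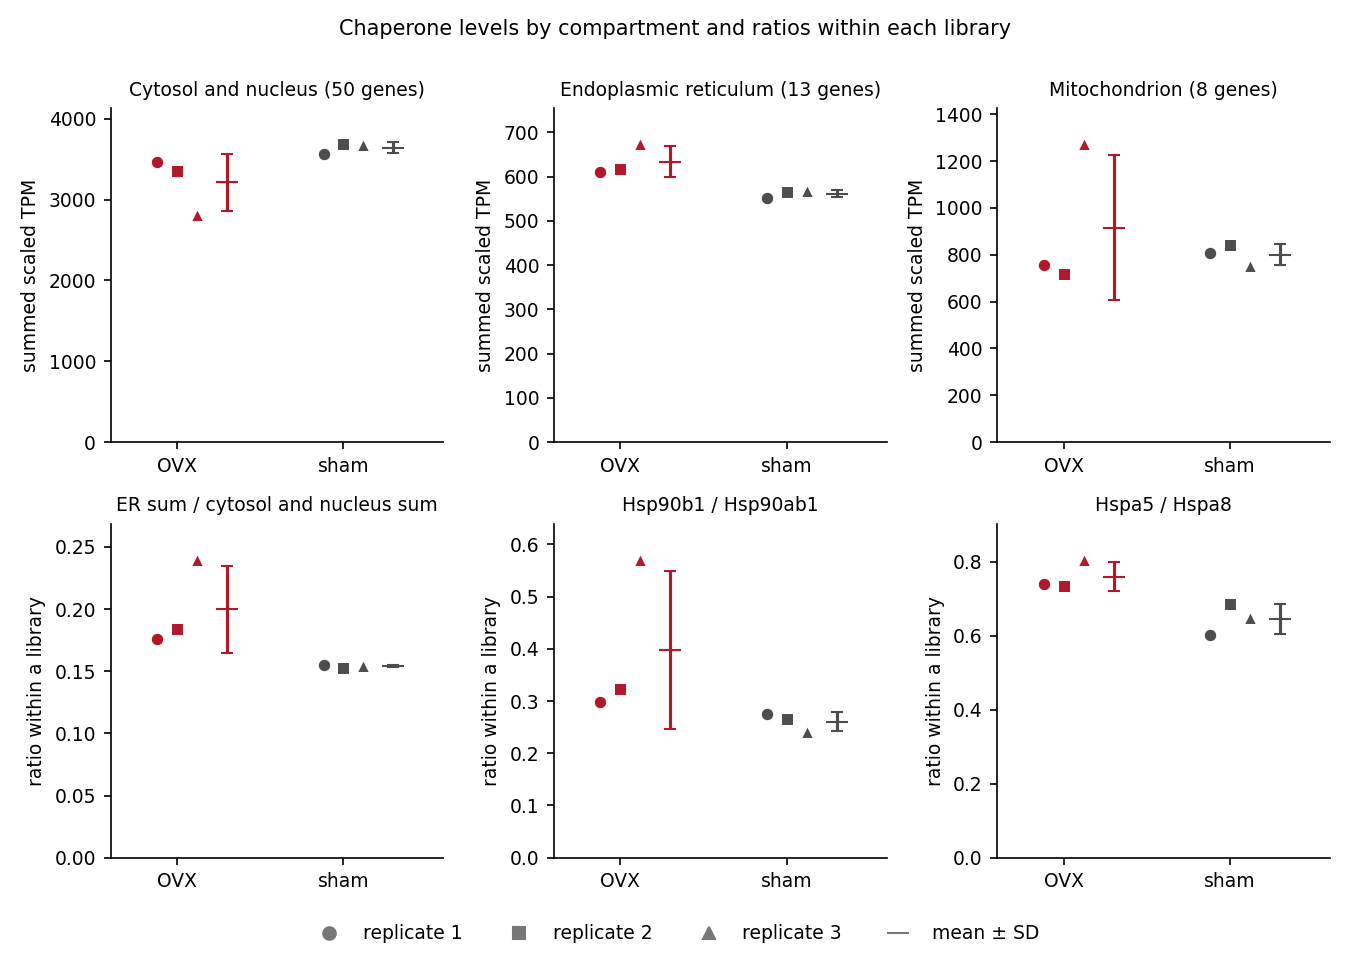
Top, summed scaled TPM of cytosolic and nuclear, ER and mitochondrial members in each library, OVX left and sham right, with symbols for replicates and mean ± SD (n = 3) beside them. Bottom, ratios formed within each library: the ER sum over the cytosolic sum is 0.176, 0.184 and 0.240 in OVX and 0.153 to 0.155 in sham.

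Ratios formed inside a library do not depend on the scaling between libraries. The ER sum over the cytosolic sum was 0.176, 0.184 and 0.240 in OVX replicates 1, 2 and 3, against 0.155, 0.153 and 0.154 in the sham replicates. The sham libraries were nearly identical to each other, and the lowest OVX value was above all of them. For the HSP90 pair, Hsp90b1 over Hsp90ab1 was 0.298, 0.323 and 0.571 in OVX and 0.276, 0.266 and 0.240 in sham. For the HSP70 pair, Hspa5 over Hspa8 was 0.738, 0.735 and 0.805 in OVX and 0.603, 0.685 and 0.646 in sham. Neither pair overlapped between groups, and both also separated OVX replicates 1 and 2 from sham. In scaled TPM the ER and cytosolic sums, and likewise Hsp90b1 and Hsp90ab1, had separated in opposite directions. Their ratios therefore had to separate and add no further support. In the HSP70 pair Hspa8 had separated and Hspa5 had not. An exact permutation test of 3 libraries against 3 cannot go below p = 0.1, so no p-value is attached to these ratios.

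**Figure D2:**
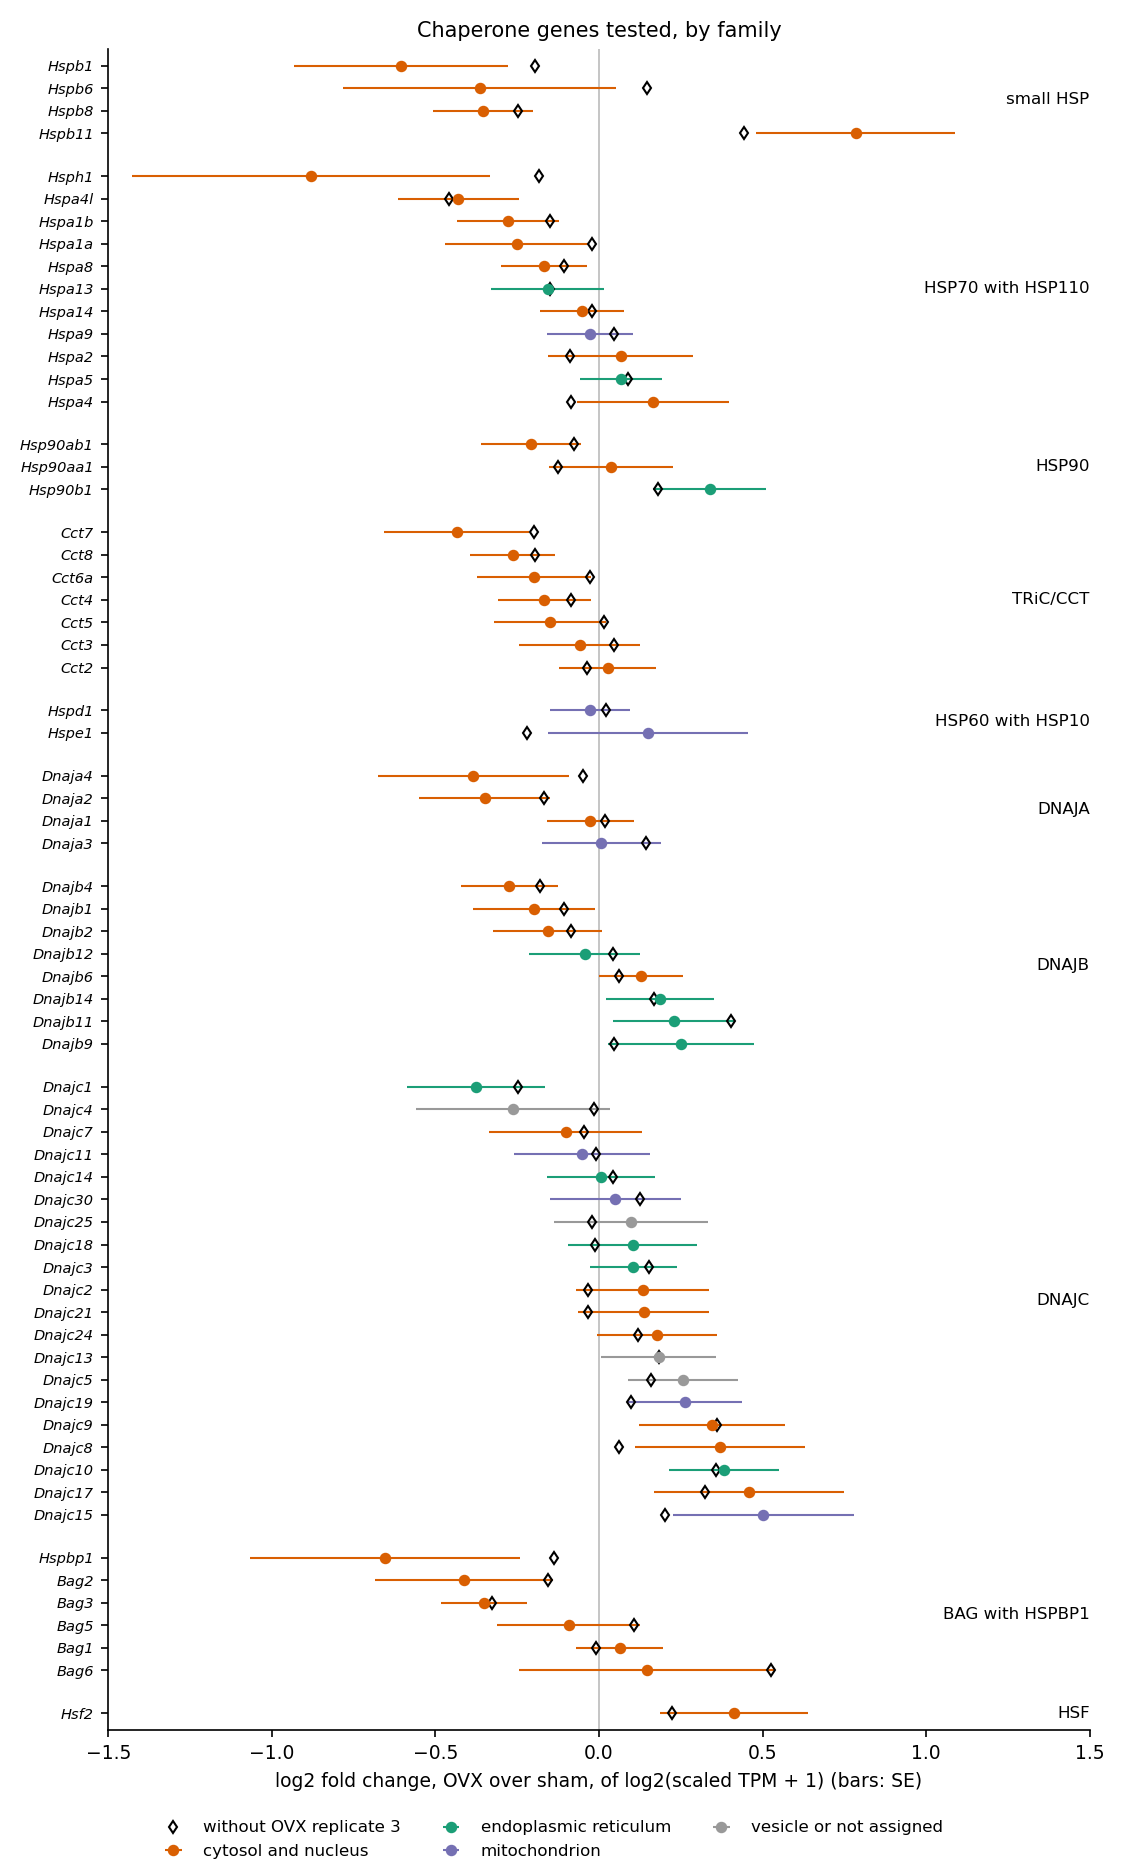
Log2 fold change of OVX over sham on log2(scaled TPM + 1) for the 66 members tested, in rows by family, with bars for the SE and colours for the compartment. Open diamonds give the value without OVX replicate 3. Small HSP, TRiC and BAG genes lie mostly left of 0 and ER genes mostly right of 0, and the diamonds of Hspb1, Hsph1 and Hspbp1 lie closer to 0 than their points.

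The small HSPs had the lowest family median, -0.36 over 4 genes, which was -0.03 without OVX replicate 3. Hspb1 (chromosome 5, 135887919 to 135889563, plus strand), the mouse HSP27 that binds unfolded proteins and actin, was at 637, 641 and 273 scaled TPM in OVX and 694, 770.2 and 736 in sham. OVX replicate 3 was far below the rest, but replicates 1 and 2 were also below each sham library. Its log2 fold change was -0.61 ± 0.33 (SE), with a limma adjusted p of 0.727, and -0.20 without OVX replicate 3. Hspb8, which works with Bag3 to send damaged proteins to autophagy, was at 53.6, 45.3 and 39.2 in OVX, against 57.9, 58.7 and 59.5 in sham. The sham libraries were close together and all OVX libraries were lower. Its log2 fold change was -0.36 ± 0.15, and -0.25 without OVX replicate 3. Hspb6, a small HSP best known from muscle, was at 4.71, 3.92 and 0.832 in OVX and 4.49, 3.65 and 3.31 in sham, and only OVX replicate 3 left the common range.

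Hspb11 was on the other side. Despite its symbol it is known as IFT25, a part of the transport train of cilia. It was at 18.6, 15.3 and 35.5 scaled TPM in OVX and 10.2, 13.0 and 13.6 in sham. Its log2 fold change was 0.78 ± 0.30 with an unadjusted limma p of 0.035 and an adjusted p of 0.692. The value is uncertain because 2 nearly equal transcripts, of 608 and 607 bases, share it. The first was at 10.26, 0 and 19.96 in OVX and 4.81, 13.0 and 8.92 in sham, and the second at 8.37, 15.3 and 15.5 in OVX and 5.39, 0 and 4.68 in sham. In OVX replicate 2 and sham replicate 2 all of the level sat on 1 of the 2. When only the more abundant transcript was taken the log2 fold change was -0.61.

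Among the HSP70 genes of the cytosol, Hspa8, the constitutive HSC70, was at 419, 424 and 369 scaled TPM in OVX and 449, 426 and 488 in sham. The groups nearly touched, with OVX replicate 2 at 424 and sham replicate 2 at 426. The heat-inducible copies were lower in level. Hspa1b was at 77.0, 76.5 and 58.6 in OVX and 90.1, 79.5 and 86.6 in sham, and Hspa1a at 46.4, 39.7 and 26.4 in OVX and 41.7, 40.8 and 48.7 in sham, so that Hspa1b did not overlap and Hspa1a did. These copies are hard to tell apart by sequencing: of the windows of 150 bases in the Hspa1b transcript, 40.5% occur unchanged in Hspa1a, and their split is uncertain. Hspa14, which assists new chains at the ribosome, showed how small a gap can be, with 19.3, 19.2 and 18.0 in OVX and 19.5, 19.4 and 19.7 in sham. Hspa2 (0.07 ± 0.22) and the ER member Hspa13 (-0.16 ± 0.17) overlapped. The family median was -0.16 over 11 genes and -0.09 without OVX replicate 3.

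The HSP110 genes, which act as exchange factors for HSP70, varied between libraries. Hsph1 was at 34.6, 25.3 and 6.16 scaled TPM in OVX and 39.5, 31.6 and 30.7 in sham. Its log2 fold change of -0.88 ± 0.55, the lowest of the 66 members, became -0.18 without OVX replicate 3. Hspa4l was low, at 1.71, 1.61 and 1.82 in OVX and 2.06, 2.74 and 3.27 in sham, and its log2 fold change of -0.43 ± 0.19 was -0.46 without OVX replicate 3. Hspa4 was at 13.7, 15.7 and 25.5 in OVX and 15.0, 16.5 and 15.4 in sham. Thus OVX replicate 3 was the lowest library for Hsph1 and the highest for Hspa4.

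**Figure D3:**
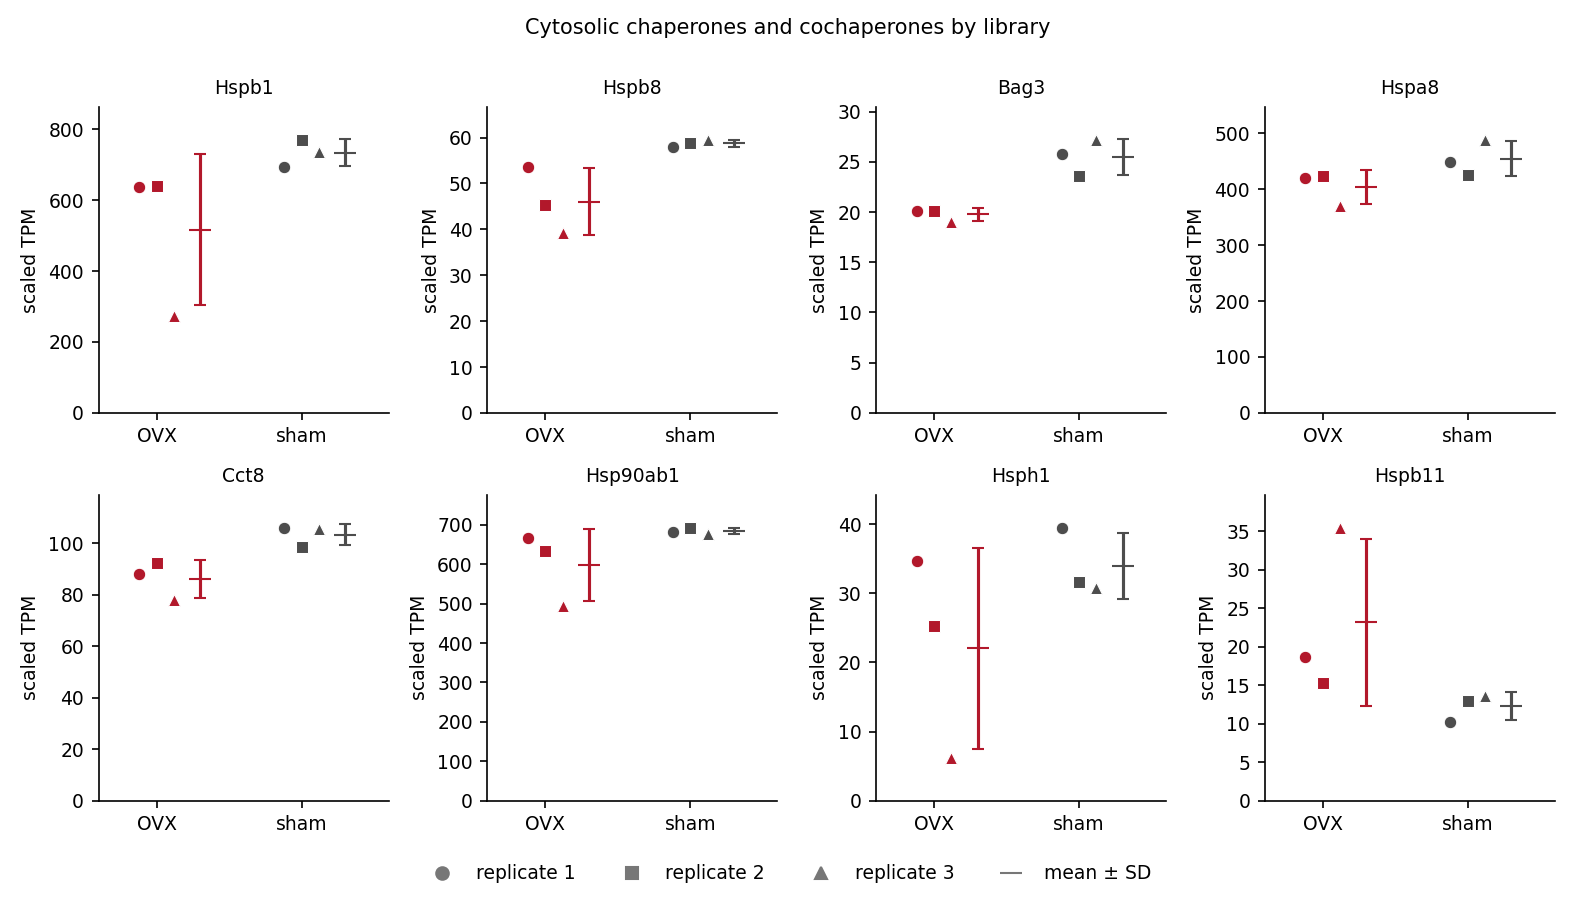
Scaled TPM of 8 cytosolic members in each library, OVX left and sham right, with symbols for replicates and mean ± SD (n = 3). Bag3 is at 19.1 to 20.1 in OVX and 23.6 to 27.2 in sham, and Hspb1 and Hsph1 show OVX replicate 3 far below the other libraries.

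Of the exchange factors named BAG, Bag3 (chromosome 7, 128523616 to 128546981, plus strand) had the smallest unadjusted p of the 66 members. It was at 20.1, 20.1 and 19.1 scaled TPM in OVX and 25.7, 23.6 and 27.2 in sham. All 3 OVX libraries were alike here and below every sham library. The log2 fold change was -0.35 ± 0.13, with an unadjusted limma p of 0.0317 and an adjusted p of 0.692, and it was -0.33 without OVX replicate 3. Bag1, the most abundant of the family, overlapped at 114, 103 and 126 in OVX and 112, 108 and 106 in sham. Bag5 was at 12.1, 12.1 and 7.64 in OVX and 12.0, 9.24 and 12.5 in sham. Hspbp1, another exchange factor, was at 12.5, 10.7 and 3.31 in OVX and 11.8, 12.3 and 14.6 in sham, where again only OVX replicate 3 was far off. Bag2 (-0.41 ± 0.27) and Bag6 (0.15 ± 0.39) were low in level and overlapped. Bag3, Hspb8 and Hspb6 are also strongly expressed in muscle, whose markers summed lower in OVX (values above), and the part of that difference here was not tested.

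Cytosolic HSP90 was the most abundant chaperone. Hsp90ab1, the constitutive form, was at 666, 633 and 493 scaled TPM in OVX and 683, 693 and 677 in sham, and its log2 fold change of -0.21 ± 0.15 became -0.08 without OVX replicate 3. Hsp90aa1, the stress-inducible form, overlapped at 178, 148 and 228 in OVX and 165, 202 and 167 in sham. Its transcripts did not move together. The main one was at 138, 145 and 72.3 in OVX and 145, 167 and 143 in sham, while a second was at 8.96, 2.49 and 118 in OVX and 20.3, 13.9 and 9.77 in sham. In OVX replicate 3 alone, the second transcript exceeded the main one, so the summed Hsp90aa1 value covers transcripts that differed there.

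The 7 TRiC subunits with a Cct symbol were of similar abundance, except Cct3, above the others in every library, and Cct4, below them. The symbol rule leaves out Tcp1, the alpha subunit of the ring, which overlapped at 60.3, 60.7 and 72.8 scaled TPM in OVX and 72.7, 59.1 and 73.2 in sham. Of the 7 Cct genes 1 had a log2 fold change above 0 and 6 below, with a median of -0.17 and of -0.04 without OVX replicate 3. Cct8 was at 88.3, 92.3 and 78.1 scaled TPM in OVX and 106, 98.7 and 106 in sham, and Cct7 at 87.7, 88.3 and 53.4 in OVX and 97.1, 92.8 and 115 in sham. Both were below sham in all OVX libraries. Cct5, at 102, 94.8 and 69.4 in OVX and 98.9, 93.9 and 99.3 in sham, differed through OVX replicate 3 alone. Cct3, at 182, 179 and 145 in OVX and 153, 219 and 159.6 in sham, varied more within sham than between the group means. A short Cct3 transcript of 472 bases was at 99.0, 108.5 and 128 in OVX and 75.7, 151 and 77.7 in sham. The Cct3 transcript of 1977 bases was at 83.2, 70.4 and 16.6 in OVX and 76.0, 68.0 and 80.2 in sham. The place of Cct3 above the other subunits thus rests on the short transcript. Cct6a was at 87.5, 86.8 and 60.6 in OVX and 87.6, 89.2 and 89.7 in sham, Cct4 at 38.9, 34.1 and 30.6 in OVX and 39.3, 37.7 and 39.1 in sham, and Cct2 at 91.8, 74.8 and 94.5 in OVX and 82.4, 93.5 and 79.8 in sham.

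In the ER, Hsp90b1 (chromosome 10, 86690209 to 86705509, minus strand), which encodes GRP94, the HSP90 that folds integrins and Toll-like receptors, was at 199, 205 and 281 scaled TPM in OVX and 188, 184 and 163 in sham. Its log2 fold change was 0.34 ± 0.17, with a limma adjusted p of 0.714, and 0.18 without OVX replicate 3. Its promoter, shown above, holds 2 copies of the ER stress element. Hspa5, the ER HSP70 known as BiP, overlapped at 309.8, 312 and 297 in OVX and 271, 292 and 316 in sham. Thus of the 2 ER chaperones with the highest levels, 1 separated the groups and the other did not.

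The ER DNAJ genes were lower in level. Dnajc10, the reductase ERdj5, was at 6.38, 7.51 and 7.30 scaled TPM in OVX and 4.31, 5.75 and 5.57 in sham, and its log2 fold change was 0.38 ± 0.17, and 0.36 without OVX replicate 3. All OVX libraries were alike and above sham. Dnajb11, the BiP partner ERdj3, was at 35.4, 37.0 and 24.8 in OVX and 25.3, 26.4 and 29.8 in sham, so OVX replicates 1 and 2 were above every sham library and OVX replicate 3 below. Dnajc3, known as p58IPK, an inhibitor of the kinase PERK, was at 16.0, 16.2 and 14.469 in OVX and 14.313, 14.350 and 14.464 in sham. The groups separated there by a margin in the third decimal, with a log2 fold change of 0.11 ± 0.13. Dnajb9, another BiP partner known as ERdj4, overlapped at 19.2, 14.9 and 26.4 in OVX and 17.7, 17.4 and 14.1 in sham. Of the 3 members with the ER stress element, Hsp90b1 and Dnajc3 separated and Hspa5 did not.

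**Figure D4:**
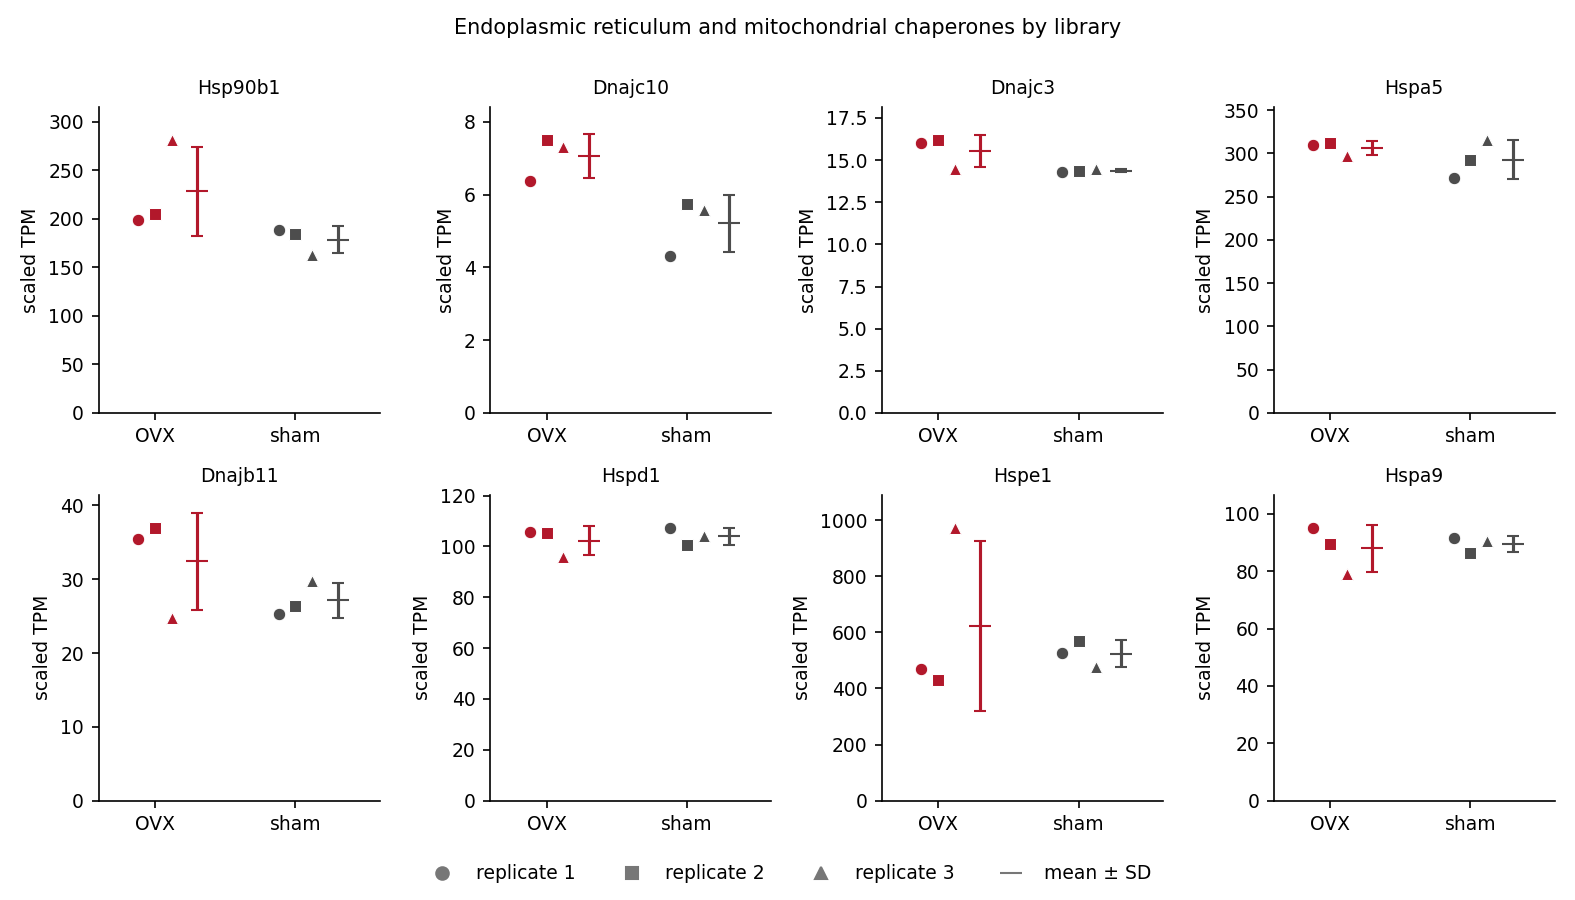
Scaled TPM of 5 ER and 3 mitochondrial members in each library, OVX left and sham right, with symbols for replicates and mean ± SD (n = 3). Hsp90b1 is at 199 to 281 in OVX and 163 to 188 in sham, and Hspe1 reaches 973 in OVX replicate 3 while Hspd1 stays between 95.7 and 107 in all 6 libraries.

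Mitochondrial HSP60 and HSP10, encoded by Hspd1 and Hspe1, are divided by the promoter shown above. Hspd1 was among the steadiest members, at 106, 105 and 95.7 scaled TPM in OVX and 107, 101 and 104 in sham. Hspe1 was at 467, 430.0 and 973 in OVX and 526, 569.7 and 477 in sham. Hspe1 over Hspd1 was 4.43, 4.08 and 10.2 in OVX and 4.90, 5.66 and 4.58 in sham. Outside OVX replicate 3 the ratio kept within a narrow range, lower in OVX replicates 1 and 2 than in sham, and in OVX replicate 3 the pair came apart. Hspa9, the mitochondrial HSP70 mortalin, overlapped at 95.2, 89.6 and 79.1 in OVX and 91.5, 86.2 and 90.7 in sham. The import motor subunits Dnajc19, at 53.8, 49.2 and 72.8 in OVX and 45.4, 49.9 and 48.9 in sham, and Dnajc15, at 17.6, 21.3 and 36.9 in OVX and 16.3, 19.7 and 14.4 in sham, were highest in OVX replicate 3. Dnaja3, at 8.91, 7.73 and 6.02 in OVX and 8.22, 7.35 and 6.77 in sham, overlapped.

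DNAJ genes were read by class. Dnaja1, the main HSP70 partner of the DNAJA class, was at 146, 141 and 131 scaled TPM in OVX and 147, 128 and 152 in sham. Dnaja2 was at 32.2, 32.8 and 22.0 in OVX and 32.7, 35.0 and 43.0 in sham, and Dnaja4 at 5.30, 5.79 and 2.26 in OVX and 5.94, 5.15 and 6.27 in sham. Both differed mainly through OVX replicate 3, and the DNAJA median of -0.19, mitochondrial Dnaja3 included, was -0.02 without it. In the DNAJB class Dnajb4 did not overlap, at 15.0, 14.6 and 12.0 in OVX and 16.4, 16.8 and 17.5 in sham. Dnajb6, which blocks aggregation, overlapped at 87.6, 90.9 and 103 in OVX and 88.5, 84.5 and 83.8 in sham. Dnajb1, the heat-inducible HSP40, was at 15.8, 14.1 and 12.2 in OVX and 15.4, 13.7 and 19.95 in sham, and Dnajb2 (-0.16 ± 0.17) overlapped as well. The DNAJB class mixes compartments. Its 4 tested members of the cytosol and nucleus had a median of -0.18, with 1 above 0 and 3 below, and its 4 ER members, Dnajb9, Dnajb11, Dnajb12 (-0.04 ± 0.17) and Dnajb14 (0.19 ± 0.17), had a median of 0.21, with 3 above 0 and 1 below. Over all 8 the median was 0.04, and -0.09 on the TPM as deposited.

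The DNAJC class, whose members share the J domain and little else, had 16 of 20 tested above 0 and a median of 0.13, which was -0.01 on the TPM as deposited, where the median of all genes was -0.15. Without OVX replicate 3, 12 of 20 were above 0, with a median of 0.08. The most abundant, Dnajc8, which associates with the splicing machinery, was at 93.7, 98.4 and 183 scaled TPM in OVX and 91.1, 97.7 and 87.4 in sham, so that its mean difference came from OVX replicate 3. The ribosome-bound Dnajc2 overlapped, at 19.4, 23.2 and 30.4 in OVX and 20.6, 25.7 and 19.3 in sham. The DNAJC members not given here by library, from Dnajc1 (-0.38 ± 0.21), an ER membrane protein, to Dnajc17 (0.46 ± 0.29), all overlapped between the groups.

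Of the heat shock factors, Hsf1, the main activator of the heat shock response, was below the level tested, at 0.973, 1.69 and 0 scaled TPM in OVX and 0.612, 0.833 and 0.299 in sham. Hsf2 was at 1.53, 1.61 and 2.82 in OVX and 1.52, 0.924 and 1.20 in sham. The gap was small, with OVX replicate 1 at 1.534 and sham replicate 1 at 1.521, and the log2 fold change of 0.41 ± 0.23 was 0.22 without OVX replicate 3.

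Partners of the chaperones that the symbols leave out were read from lists, none of whose genes were called. Of 18 further HSP70 and HSP90 cochaperones, 3 were above 0 in log2 fold change and 15 below, with a median of -0.19 and of -0.09 without OVX replicate 3. The first by limma p were Unc45a, a myosin chaperone, at 0.912, 1.79 and 0 in OVX and 2.67, 1.59 and 2.18 in sham, the mitochondrial HSP90 Trap1 (-0.40 ± 0.23), and Stub1 (-0.40 ± 0.23), the ubiquitin ligase CHIP that marks HSP70 clients for decay. Stub1 was at 66.0, 66.4 and 38.3 in OVX and 69.4, 69.9 and 80.9 in sham, without overlap. Of 10 TRiC partners and prefoldin subunits, a list that also holds the TRiC subunit Tcp1, 7 were above 0 and 3 below, with a median of 0.24 that became -0.08 without OVX replicate 3. They were led by Pdcl3 (0.42 ± 0.22), Pfdn5 (0.28 ± 0.15) and Txndc9 (0.31 ± 0.22).

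Of 20 ER folding enzymes and genes of the unfolded protein response, 11 were above 0 and 9 below, with a median of 0.01 and of 0.12 without OVX replicate 3. The first were Ddit3, which encodes the stress factor CHOP, at 140, 111 and 122 in OVX and 95.5, 112 and 92.2 in sham, the secreted ER protein gene Manf, at 356, 369 and 522 in OVX and 348, 340 and 317 in sham, and the stress sensor Ern1 (0.28 ± 0.18). Manf did not overlap and Ddit3 did. The list summed to 1579, 1520 and 1374 scaled TPM in OVX and 1430, 1422 and 1464 in sham, so OVX replicates 1 and 2 were above sham and OVX replicate 3 below. Of 10 mitochondrial folding partners and proteases, 5 were above 0 and 5 below, with a median of -0.04. Besides Trap1 they were led by Pam16 (0.29 ± 0.18) and Clpx (0.20 ± 0.14).

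A list of 8 stress genes without a chaperone name was drawn up as associated with HSF1. Whether HSF1 controls them in these cells was not tested. Of the 8, 2 were above 0 and 6 below, with a median of -0.13 and of -0.01 without OVX replicate 3. Rgs2 was at 5.64, 6.79 and 5.48 in OVX and 8.95, 8.73 and 7.32 in sham, and the heme oxygenase gene Hmox1 at 1143, 996 and 391 in OVX and 1152, 949.9 and 1371 in sham. Ier5 was at 50.4, 54.3 and 76.5 in OVX and 51.4, 49.8 and 52.4 in sham. Because the tissue was digested for hours, immediate early genes that dissociation induces were read in the same way. Of 15 tested 4 were above 0 and 11 below, with a median of -0.11 and of 0.04 without OVX replicate 3. Egr1 (-0.48 ± 0.20) did not overlap, while Jund (-0.44 ± 0.38) and Ier3 (-0.55 ± 0.47) did. The list summed to 4074, 3787 and 1335 in OVX and 3708, 3627 and 3941 in sham, mostly through Ier3. The part of the digestion in the chaperone levels was not tested.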

How the data were processed

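RNA of 3 OVX and 3 sham libraries of sorted Omacs was analysed, with groups and replicate numbers from the sample titles. Whether replicates came from separate mice or cultures is not said, so the spread behind the p-values may be only technical. TPM per transcript were deposited by the authors in 1 table. Their methods give trimming by fastp, alignment to mm10 and counting, and the submitters' processing notes name HISAT2 2.0.5 and featureCounts 1.5.0-p3. The step from these to TPM per transcript is not given in the sources. TPM keep no counts, so depth per value is unknown and no counting interval is given. Comparison columns beside the TPM (a mean, fold changes with errors, and p-values) were not used. Of 437 transcripts of the members in GENCODE M21 (GRCm38), 162 are listed, and 18 more genes that meet the symbol rule were not analysed here, so a value can miss part of a gene's RNA.

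TPM were summed over listed transcripts of a gene and divided by library factors from an unweighted trimmed mean of M (30% of M and 5% of A trimmed at each end). Genes with a mean of 1 or more entered limma 3.58.1 in R 4.3.3 (trend, group only) on log2(scaled TPM + 1), which understates changes of low genes, with Benjamini-Hochberg adjustment over 8184 genes. The code was tested on simulated data. Members and gene lists were chosen with earlier results of these data known, and compartments were assigned by hand from textbook knowledge. Named genes were any called member, the 4 most abundant of each family, up to 8 per direction without overlap by p, members at 0, and up to 3 genes of each partner list by p. Others were added after their values were seen. Alternatives were other scalings, filters and pseudocounts, library weights, the most abundant transcript, a replicate block, and leaving out each library.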

Additional observations from a re-analysis of the deposited data

How the results depend on the processing

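No member was called in either direction under any of the alternatives. The lowest adjusted p of a member was 0.208 with library weights, which gave OVX replicate 3 a weight of 0.172, and 0.385 without that library. The median log2 fold change of the members was -0.03 and moved to -0.1654 on the TPM as deposited, as the median of all genes moved to -0.15, and leaving out 1 library gave -0.06168 to -0.007372. Signs in the lists below were followed only for tested members that the naming rule above picked by abundance or lack of overlap. Over all 66 tested members, 32 were above 0, against 17 on the TPM as deposited. Among the members followed, values that changed sign were mostly near 0. On the TPM as deposited these were Bag1 (-0.09769), Dnaja3 (-0.1332), Dnajb6 (-0.03278), Dnajc2 (-0.02236), Dnajc3 (-0.04643), Hspe1 (-0.0112), Hspa5 (-0.09479) and Hsp90aa1 (-0.1247). With library weights they were Bag1 (-0.04144), Bag5 (0.06767), Dnajb9 (-0.02886), Hspe1 (-0.2021), Hspd1 (0.005069), Hspa9 (0.01012), Hsp90aa1 (-0.1501) and Cct3 (0.05686). With the most abundant transcript they were Bag1 (-0.028), Dnaja3 (-0.05289), Hsp90aa1 (-0.4288), Cct3 (0.1922) and Hspb11 (-0.6078). Leaving out each library in turn gave ranges that cross 0 for Bag1 (-0.009655 to 0.1354), Bag5 (-0.2171 to 0.1069), Dnaja1 (-0.1015 to 0.02307), Dnaja3 (-0.1069 to 0.1425), Dnajc2 (-0.03351 to 0.2785), Hspe1 (-0.2214 to 0.367), Hspd1 (-0.05044 to 0.0199), Hspa9 (-0.08585 to 0.04606), Hsp90aa1 (-0.1249 to 0.1842), Cct3 (-0.1557 to 0.1022), Cct5 (-0.2592 to 0.01563) and Hspb6 (-0.6739 to 0.1463). Members not followed in these lists also changed sign. With all libraries and then without OVX replicate 3, Hspa4 was at 0.17 and -0.09, and Hspa2 at 0.07 and -0.09. Cct2 was at 0.03 and -0.04, and Dnajb12 at -0.04 and 0.04. The cause was not tested. Same-numbered OVX and sham libraries did not deviate together (correlations of -0.056, -0.128 and -0.251). Pairs with other numbers ranged from -0.145 to 0.198. With deviations taken within groups of 3 libraries, these values show no pairing by number but cannot exclude one. With a replicate block, 0 members were called, 1 had an unadjusted p under 0.05 and the lowest adjusted p was 0.894.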
